A study of Mus musculus with 15 samples.

Results

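The extracellular matrix of the lung was followed here through 46 genes that encode collagens, elastic fibre and microfibril proteins, matrix proteoglycans, lysyl oxidases, matricellular glycoproteins and tissue inhibitors of metalloproteinases. The members were listed by symbol, and every array probe whose RefSeq accession leads to a listed symbol was taken. This gave 70 probes, and all 46 genes were measured, out of 34401 genes tested. Of these, 19289 had a symbol, and each of the rest was a single probe without a symbol, counted here as a gene. RNA came from the lungs of 15 females of the outbred Crlj:CD1(ICR) stock, labelled as 11 weeks old. They had eaten a diet with 0 (control), 20, 500, 2500 or 5000 ppm permethrin, a pyrethroid insecticide, for 7 days. Each diet had 3 mice with 1 array per mouse, and the labels call these arrays biological replicates. All groups share the stock, the sex, the age and the length of feeding, and the diet is the only labelled difference between them.

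Collagen chains fold into triple helices in the endoplasmic reticulum and are assembled outside the cell into fibrils or, for type IV, into the sheets of basement membranes. Elastin is laid down on a scaffold of microfibrils and is cross-linked, like collagen, by lysyl oxidases, which gives the alveolar wall its recoil. Small proteoglycans such as decorin and biglycan bind collagen fibrils, and most of these transcripts come from fibroblasts, smooth muscle and pericytes, with type IV collagen made by endothelium and epithelium as well.

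Levels are given as log2 of the background-subtracted signal relative to each array's 75th percentile, so 0 is a probe as bright as that percentile. A level describes 1 probe over the mice and is not set against another gene's level. Between 70.7% and 87.0% of an array's probes were well above background, and no spot was saturated. Of the 46 genes, 45 were well above background on all 15 arrays, the exception being Tnc. All 8 alveolar type 2 and all 7 alveolar type 1 markers were well above background on each array, as were all 13 lung fibroblast markers. The arrays lay on 2 slides. Slide 1 held control, 20 ppm and 500 ppm mice 1 and 2. Slide 2 held 500 ppm mouse 3, 2500 ppm and 5000 ppm, so dose and slide cannot be told apart for the 2 highest doses against control except through that mouse. On the first principal component of all genes (36.3% of variance) the arrays of 500 ppm mouse 3 and 2500 ppm mouse 3 stood apart, both with a non-zero extraction status in their headers, and on the second (17.9%) those of control mouse 1 and 20 ppm mouse 1.

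The main question was which of these transcripts differed between the diets. None of the 46 passed an adjusted p of 0.05 (limma, Benjamini-Hochberg over all genes) in any of 7 comparisons: each dose against control, 5000 against 2500 ppm, the trend over dose ranks and any difference among diets. Among all genes 0.0407% passed at 5000 ppm, 0.142% on the trend and 0.0407% in the test among diets, and 0% in the other 4. At an unadjusted p under 0.05 the counts were 0 of 46 at 20 ppm (1.47% of all genes), 0 at 500 ppm (2.84%), 7 at 2500 ppm (8.5%) and 4 at 5000 ppm (5.14%). They were 1 for 5000 against 2500 ppm (5.03%), 7 on the trend (9.21%) and 3 among the diets (5.35%). A p above the threshold does not show that levels were equal, and with 3 mice per diet the precision is limited.

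**Figure D1:**
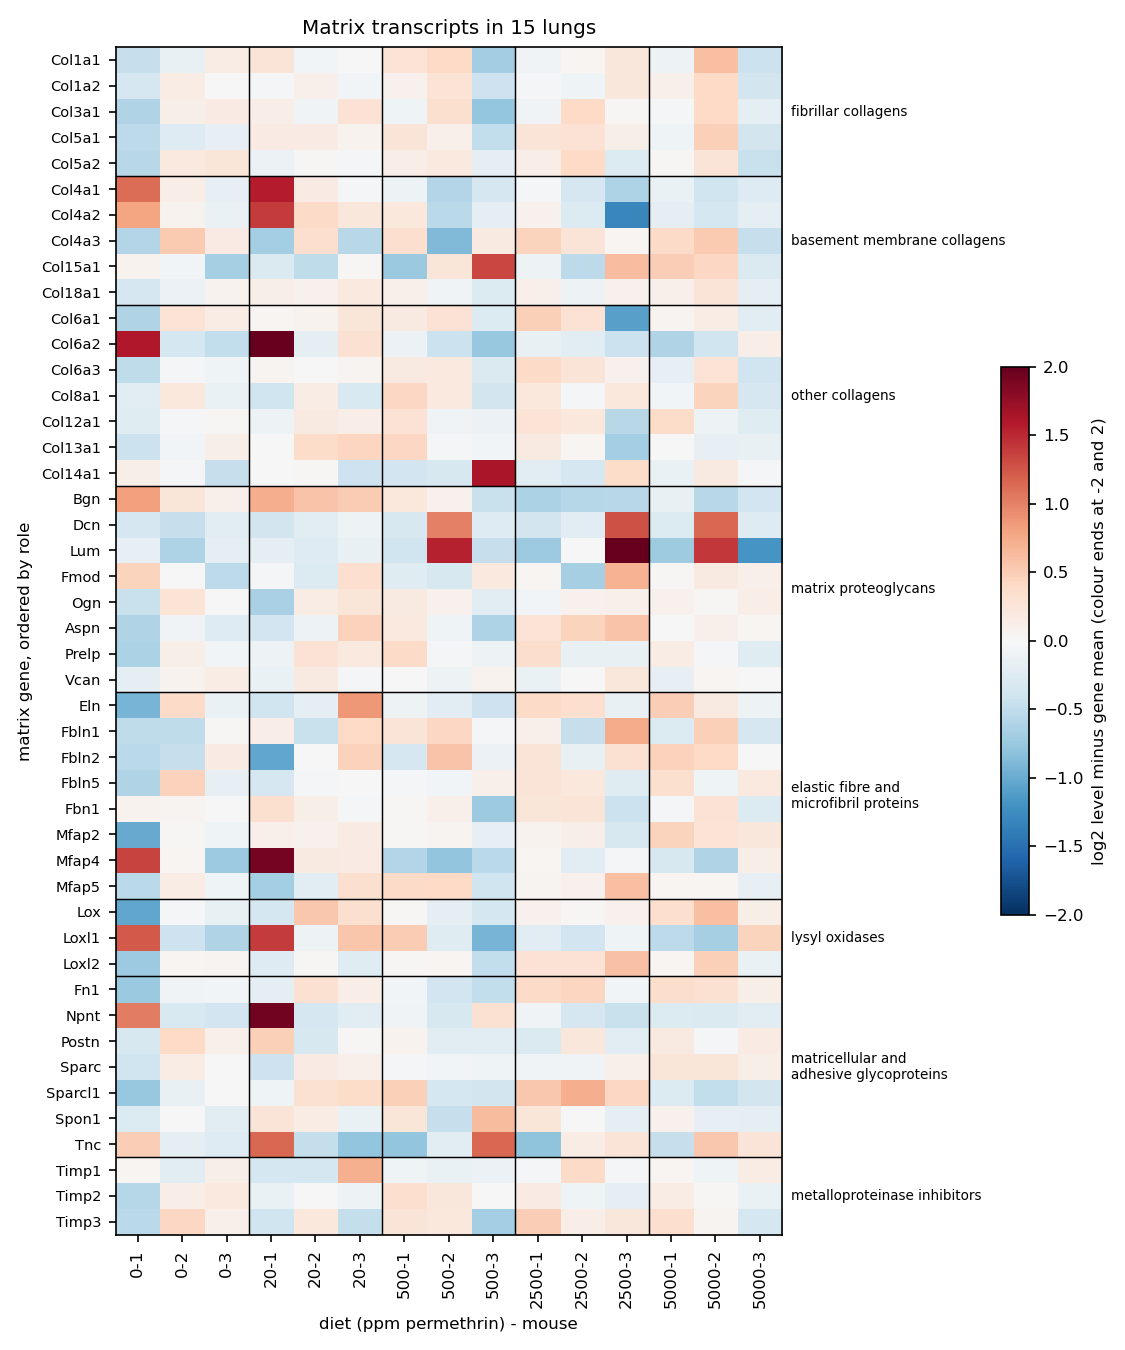
Log2 level of each of the 46 genes minus its mean over the 15 mice, with genes in rows by role and mice in columns by diet. Control mouse 1 and 20 ppm mouse 1 share a column pattern that includes high Col4a1, Col6a2, Mfap4, Npnt and Loxl1, and Dcn and Lum are high in 500 ppm mouse 2, 2500 ppm mouse 3 and 5000 ppm mouse 2.

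Over the 46 genes, the median log2 difference from control was 0.17 at 20 ppm (all genes -0.03), 0.08 at 500 ppm (0.12), 0.16 at 2500 ppm (0.05) and 0.11 at 5000 ppm (0.07), where the array median over these genes had an SD of 0.16 between mice of a diet. The difference was above 0 for 36 of 46 at 20 ppm (44.5% of all genes), 29 at 500 ppm (70.4%), 34 at 2500 ppm (57.3%) and 35 at 5000 ppm (60.6%). Between 5000 and 2500 ppm the median was -0.01 (all genes 0.03), with 23 above 0 (55.4%), and on the trend 34 were above 0 (64%). These comparisons with control share the same 3 control mice, of which mouse 1 had the lowest array median over the 46 genes, -0.42 after centring each gene on its mean, against -0.27 to 0.18 in the other 14 mice. Control mouse 1 was the lowest of the 15 arrays for 14 of the 46, and for 19.4% of all genes. Without it the median at 5000 ppm was 0.02 (all genes 0.02), and 17 of the 46 genes changed sign there.

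**Figure D2:**
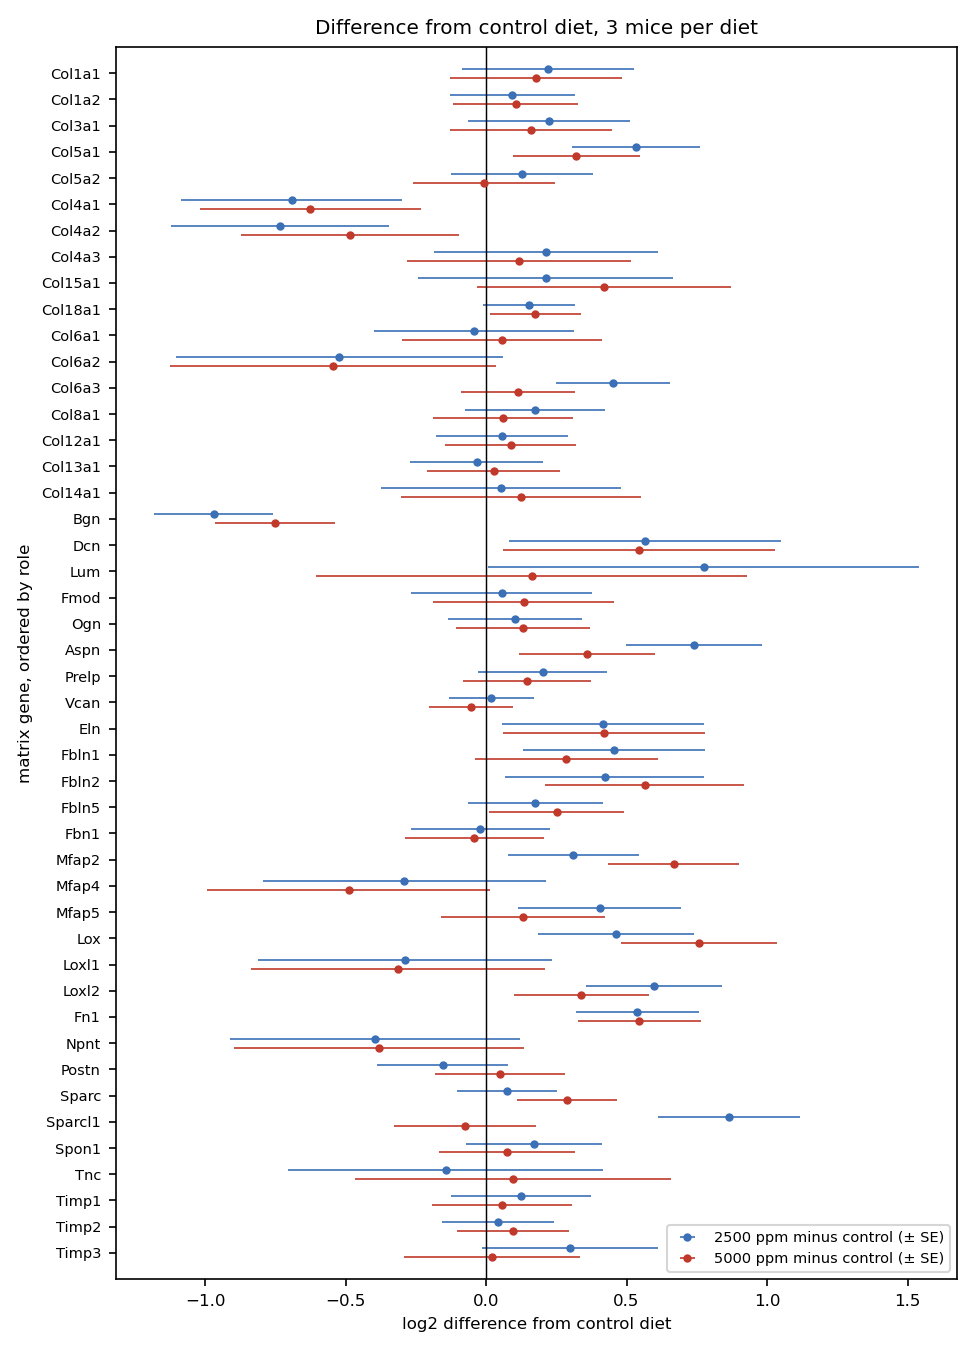
Log2 difference from the control diet (x axis) for the 46 genes (y axis, by role) at 2500 ppm (blue) and 5000 ppm (red), with points for estimates and bars for 1 SE from the limma model. Bgn is the farthest to the left at both doses, and the right side is led by Sparcl1 at 2500 ppm and Lox at 5000 ppm.

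Biglycan, a small proteoglycan that binds collagen and growth factors, gave the smallest p of the 46. Bgn levels were 1.45, 0.88 and 0.74 in control mice 1 to 3, 1.36, 1.21 and 1.14 at 20 ppm, and 0.85, 0.73 and 0.19 at 500 ppm. They were 0.01, 0.07 and 0.09 at 2500 ppm and 0.49, 0.07 and 0.25 at 5000 ppm. Every mouse at the 2 highest doses lay below every control and 20 ppm mouse, and the third mouse at 500 ppm lay with the high doses. The log2 difference was -0.97 ± 0.21 (SE) at 2500 ppm, 1.96-fold lower (limma adjusted p = 0.170), and -0.75 ± 0.21 at 5000 ppm, 1.68-fold lower (adjusted p = 0.662). With slide as a fixed block these were -0.38 and -0.16 (adjusted p = 0.613 and 0.835), and with array weights the value at 2500 ppm was -0.83 (adjusted p = 0.0132). On the trend it was -0.27 ± 0.05 per dose rank (adjusted p = 0.0529, 0.00267 to 0.846 over 30 alternatives).

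The order of Bgn also followed the slides. All 8 arrays of slide 1 (0.73 to 1.45) lay above all 7 of slide 2 (0.01 to 0.49), which no other of the 46 genes did and 0.16% of all genes did. Within slide 1, 20 ppm differed from control by 0.21, and within slide 2, 5000 differed from 2500 ppm by 0.22 ± 0.21. Also on slide 1, 500 ppm mice 1 and 2 were at 0.85 and 0.73, with controls at 0.74 to 1.45. With slide as a fixed block the trend was -0.09 (adjusted p = 0.652), and with slide as a random block -0.21 (adjusted p = 0.846). With the mouse number as a block its adjusted p was 0.0383, and without 500 ppm mouse 3 it was 0.0221. Dose and slide cannot be told apart for this gene.

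**Figure D3:**
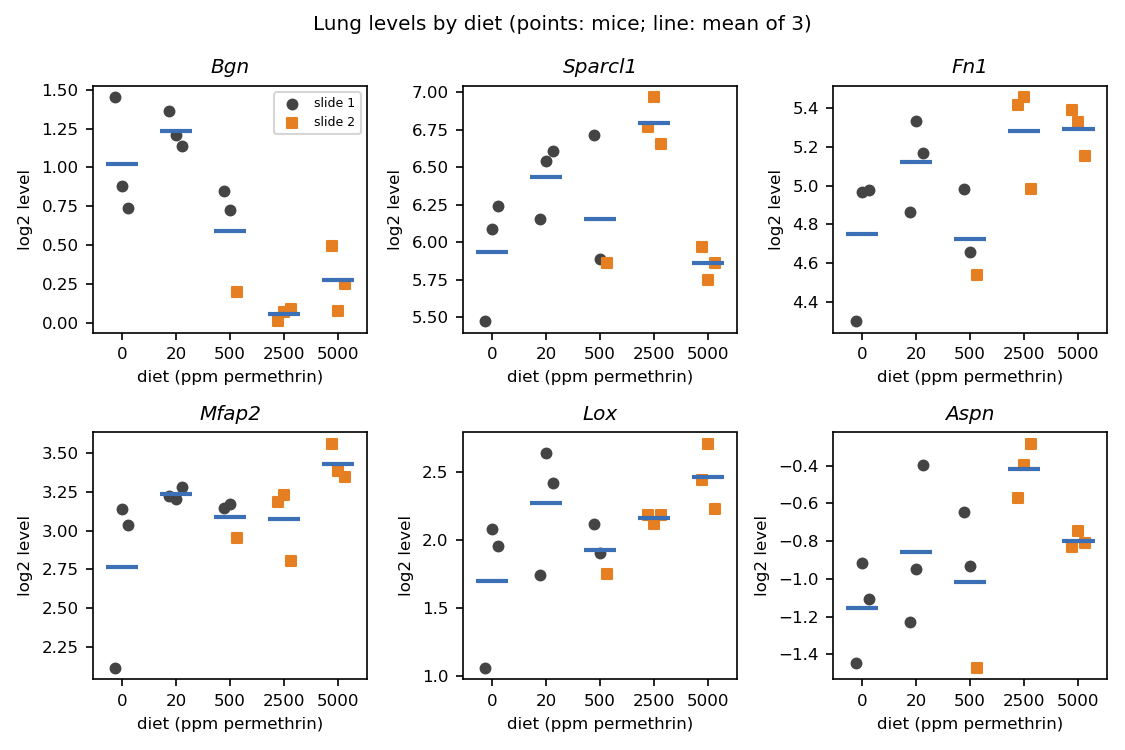
Log2 levels (y axis) of 6 genes in single mice by diet (x axis), with slide 1 as circles, slide 2 as squares and lines at the mean of 3 mice. Bgn falls into a high set on slide 1 and a low set on slide 2, and the 3 mice at 5000 ppm lie below the 3 at 2500 ppm for Sparcl1.

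The other small proteoglycans did not share this order. Asporin (Aspn), a relative of biglycan that binds collagen, was -1.45, -0.92 and -1.10 in controls and -1.23, -0.95 and -0.39 at 20 ppm. It was -0.65, -0.93 and -1.47 at 500 ppm, -0.57, -0.40 and -0.28 at 2500 ppm, and -0.83, -0.75 and -0.81 at 5000 ppm. All mice at 2500 and 5000 ppm were above all controls, while the 20 and 500 ppm groups overlapped with both. The log2 difference was 0.74 ± 0.24 at 2500 ppm (adjusted p = 0.361) and 0.36 ± 0.24 at 5000 ppm (adjusted p = 0.966). With a fixed term for slide, estimated from 500 ppm mouse 3 only, the value at 2500 ppm was 1.42 (adjusted p = 0.0264). Versican (Vcan), a large proteoglycan that binds hyaluronan, stayed between -1.61 and -1.20 in all 15 mice by its brightest probe. At 2500 ppm that probe gave 0.02 and a second one, well above background on all 15 arrays, gave 0.79 (adjusted p = 0.433, every probe fitted). The third gave 1.09 (adjusted p = 0.315), but it was well above background on only 11 of 15 arrays, among them 2 of 3 controls. By their brightest probes Fmod, Ogn and Prelp, which also bind collagen, differed from control by 0.06 to 0.20 at 2500 ppm and 0.13 to 0.15 at 5000 ppm. The other Prelp probe, well above background on all 15 arrays, gave -0.16 at 2500 ppm and -0.31 at 5000 ppm.

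Decorin and lumican, which regulate collagen fibril growth and lie next to each other on chromosome 10, were high in the same 3 mice. Dcn was 4.83, 4.71 and 4.94 in controls, 4.80, 4.95 and 5.06 at 20 ppm, and 4.85, 6.17 and 4.90 at 500 ppm. At 2500 ppm it was 4.79, 4.94 and 6.44, and at 5000 ppm 4.89, 6.32 and 4.90. Apart from 500 ppm mouse 2, 2500 ppm mouse 3 and 5000 ppm mouse 2, no level left the range 4.71 to 5.06. Lum was 0.10, -0.35 and 0.08 in controls, 0.08, 0.00 and 0.11 at 20 ppm, and -0.14, 1.80 and -0.20 at 500 ppm. It was -0.46, 0.26 and 2.35 at 2500 ppm and -0.45, 1.68 and -0.92 at 5000 ppm. The same 3 mice stood above the other 12, and the other 2 mice at 5000 ppm lay below all controls for Lum and inside the control range for Dcn.

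The difference from control at 5000 ppm was 0.54 ± 0.48 for Dcn (adjusted p = 0.968) and 0.16 ± 0.77 for Lum (adjusted p = 0.986). Without 5000 ppm mouse 2 these became 0.07 and -0.63. The 3 mice also had the highest levels of fat cell markers. Adipoq, the hormone adiponectin, was 2.46, 1.83 and 2.16 in them and at most -0.26 in the others, and Plin1, Cidec, Retn, Fabp4 and Cfd were likewise highest there. The exception was Lep, which ran from -0.89 to -0.50 over all 15. The summed linear level of the 7 measured fat cell markers was 9.47 to 31.3 in controls and 6.64 to 20.2 at 20 ppm. It reached 195 at 500 ppm, 106 at 2500 ppm and 161 at 5000 ppm, each time in the mouse with high Dcn and Lum. Comp, a matrix protein of cartilage and tendon, was -0.21, 0.26 and 0.01 in the 3 mice and at most -1.87 in the others. It is 1 of 7 measured cartilage markers. The summed linear level of the 7, Comp included, was 3.33, 3.75 and 3.52 in the 3 mice and at most 2.72 in the others. The median of the 7 did not single out the same mice. With each gene centred on its mean, their median was 0.36, 1.11 and 0.50 in the 3 mice and 0.86 in 500 ppm mouse 3. The part of other cells in the Dcn and Lum levels was not tested. In whole lung RNA, fewer cells of a type and less RNA per cell cannot be told apart.

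**Figure D4:**
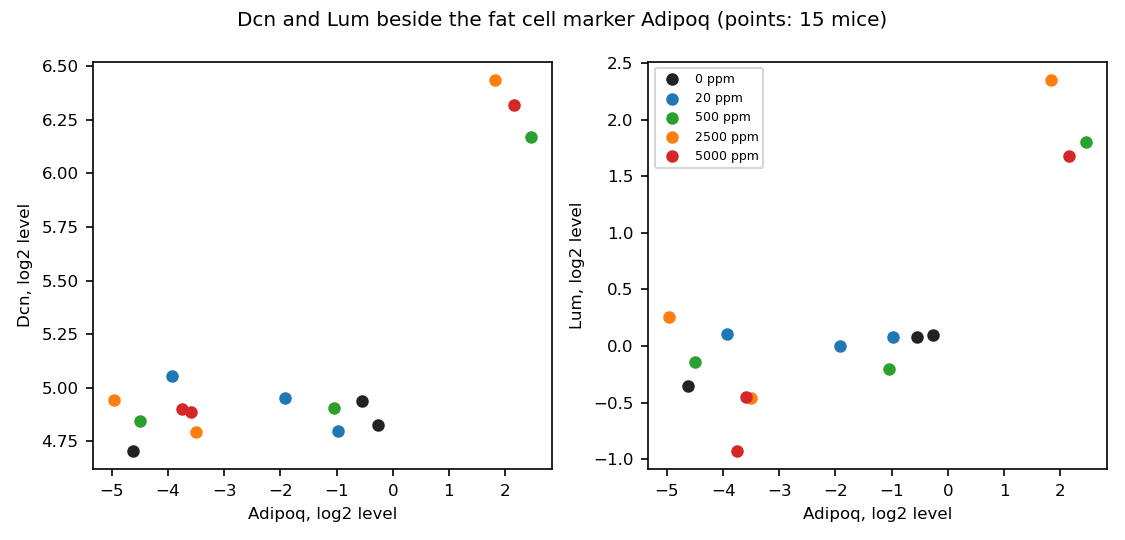
Log2 levels of Dcn (left) and Lum (right) on the y axes against the fat cell marker Adipoq (x axis), 1 point per mouse, coloured by diet. In both panels 500 ppm mouse 2, 2500 ppm mouse 3 and 5000 ppm mouse 2 lie at the upper right and the other 12 mice form a low band.

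None of the fibrillar collagens, which carry the tensile load of the tissue, passed the threshold. Col1a1 was 2.09, 2.41 and 2.71 in controls, 2.81, 2.51 and 2.56 at 20 ppm, 2.84, 2.96 and 1.87 at 500 ppm, 2.49, 2.59 and 2.79 at 2500 ppm, and 2.46, 3.16 and 2.13 at 5000 ppm. Col3a1 was 3.71, 4.44 and 4.48 in controls, 4.45, 4.24 and 4.61 at 20 ppm, 4.22, 4.63 and 3.54 at 500 ppm, 4.24, 4.72 and 4.35 at 2500 ppm, and 4.28, 4.72 and 4.11 at 5000 ppm. For both genes the diets overlapped, with the low ends at control mouse 1 and 500 ppm mouse 3. The log2 difference at 5000 ppm was 0.18 ± 0.31 for Col1a1 and 0.16 ± 0.29 for Col3a1 (adjusted p = 0.970 for each). With slide as a fixed block, set by 500 ppm mouse 3, the same differences were 1.21 (adjusted p = 0.0897) and 1.05 (adjusted p = 0.149). Without control mouse 1 the value was -0.09 for Col3a1, and without 5000 ppm mouse 2 it was -0.11 for Col1a1 and -0.01 for Col3a1. Among the 5 fibrillar chains the differences at 5000 ppm ran from -0.01 to 0.32, with Col5a1, a minor chain that sets fibril diameter, at the top. Col5a1 differed by 0.45 at 20 ppm and by 0.53 ± 0.23 at 2500 ppm (adjusted p = 0.531), and at both doses its mice lay above all controls. With the fixed slide block the 2500 ppm value was 1.20 and passed (adjusted p = 0.0386).

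The type IV collagen chains of basement membranes varied widely between mice of the same diet. Col4a1 was 3.07, 2.07 and 1.79 in controls, 3.51, 2.11 and 1.92 at 20 ppm, and 1.85, 1.36 and 1.62 at 500 ppm. It was 1.90, 1.61 and 1.34 at 2500 ppm and 1.81, 1.55 and 1.69 at 5000 ppm. Control mouse 1 and 20 ppm mouse 1 were well above all other mice, and the remaining controls overlapped with the high doses. Col4a2 was 2.38, 1.65 and 1.45 in controls and 2.99, 1.97 and 1.82 at 20 ppm, with the same 2 mice on top. It was 1.81, 1.05 and 1.42 at 500 ppm, 1.67, 1.33 and 0.29 at 2500 ppm, and 1.39, 1.25 and 1.40 at 5000 ppm, where all 3 mice lay below all controls. The trend was -0.21 per dose rank for each chain (adjusted p = 0.502 for both). The difference at 5000 ppm was -0.63 ± 0.39 for Col4a1 and -0.48 ± 0.39 for Col4a2 (adjusted p = 0.966 for both), and without control mouse 1 it was -0.25 and -0.21.

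Col4a1 and Col4a2 are read from opposite strands of mouse chromosome 8, and they are shown because their levels moved together across mice. RefSeq promoter windows (GRCm38.p6, 250 bases before to 50 after the start) were available for 30 of the 46 genes. The windows of this pair are chr8:11312777-11313076 on the minus strand for Col4a1 and chr8:11312555-11312854 on the plus strand for Col4a2. The start sites used for them lie 21 bases apart, and the 78 bases that both windows hold are in capitals, each on its own strand.
Col4a1: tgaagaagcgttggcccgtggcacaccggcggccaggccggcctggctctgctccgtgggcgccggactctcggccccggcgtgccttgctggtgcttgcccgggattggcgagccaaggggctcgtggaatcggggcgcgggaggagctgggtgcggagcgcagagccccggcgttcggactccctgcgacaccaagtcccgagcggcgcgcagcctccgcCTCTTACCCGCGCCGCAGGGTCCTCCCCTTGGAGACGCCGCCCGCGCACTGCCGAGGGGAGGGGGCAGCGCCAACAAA
Col4a2: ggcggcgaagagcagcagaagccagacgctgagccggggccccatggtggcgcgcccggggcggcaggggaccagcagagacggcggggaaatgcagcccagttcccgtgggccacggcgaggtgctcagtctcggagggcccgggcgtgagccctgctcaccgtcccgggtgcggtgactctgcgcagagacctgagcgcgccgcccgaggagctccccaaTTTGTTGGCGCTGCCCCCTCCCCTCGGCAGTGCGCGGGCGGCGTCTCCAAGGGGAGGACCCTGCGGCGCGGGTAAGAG
On either strand the letters CCAAT occur 1 time in each window, in both cases not wholly inside the shared stretch, and 37.4% of all promoter windows in the table hold them. The letters GGGCGG occur 1 time in the Col4a1 window, in the shared stretch, and 3 times in the Col4a2 window including that one, against 35.7% of all windows holding them at least once. Among the 30 genes with a window, 13 hold CCAAT and 19 hold GGGCGG. A match describes the letters and does not show that a factor binds.

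With each diet's mean removed, Col4a1 and Col4a2 had a Pearson r of 0.88 over the 15 mice (permutation within diets, adjusted p = 0.00248 over 8 pairs) and a Spearman rho of 0.93 (permutation adjusted p = 0.00248). Without the 2 mice farthest from the median, r was 0.89. Within slide 1 it was 0.98 (n = 8) and within slide 2 it was 0.91 (n = 6). Col1a1 and Col1a2, which form type I collagen, had an r of 0.87 (permutation adjusted p = 0.0135) and a rho of 0.80 (permutation adjusted p = 0.0201), 0.66 without 2 mice, 0.51 on slide 1 and 0.93 on slide 2. For Col5a1 and Col5a2 of type V collagen r was 0.76 (permutation adjusted p = 0.00904), rho was 0.85 (permutation adjusted p = 0.00531), and r was 0.86 without 2 mice, 0.82 on slide 1 and 0.80 on slide 2. For all 8 pairs the permutation sets r against genes that vary independently between mice. Differences shared by whole arrays can also give a small p, and no other gene pairs were computed. The p values therefore do not show that partners go together more than other genes do.

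Type VI collagen is built from 3 chains, and by the brightest probe of each gene only Col6a3 went with Col6a1 in these mice. For Col6a1 and Col6a3 r was 0.69 (permutation adjusted p = 0.0036), rho was 0.74 (permutation adjusted p = 0.00531), and r was 0.86 without 2 mice, 0.97 on slide 1 and 0.54 on slide 2. For Col6a1 and Col6a2 r was -0.25 (permutation adjusted p = 0.379), rho was -0.19 (permutation adjusted p = 0.639), and r was -0.07 without 2 mice, -0.74 on slide 1 and 0.19 on slide 2. The difference between these correlations was not tested. With diet means left in, the second probe of Col6a3 had an r of -0.31 with the brightest one, and that of Col6a2 had 0.69. The pairs were not tested with the second probes. The Col6a2 level was 0.14, -1.82 and -1.96 in controls and 0.62, -1.65 and -1.16 at 20 ppm. It was -1.59, -1.90 and -2.22 at 500 ppm, -1.61, -1.69 and -1.90 at 2500 ppm, and -2.07, -1.86 and -1.34 at 5000 ppm. Again control mouse 1 and 20 ppm mouse 1 were far above the other 13 mice, which overlapped. The difference at 5000 ppm was -0.54 ± 0.58 (adjusted p = 0.970) and 0.13 without control mouse 1.

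**Figure D5:**
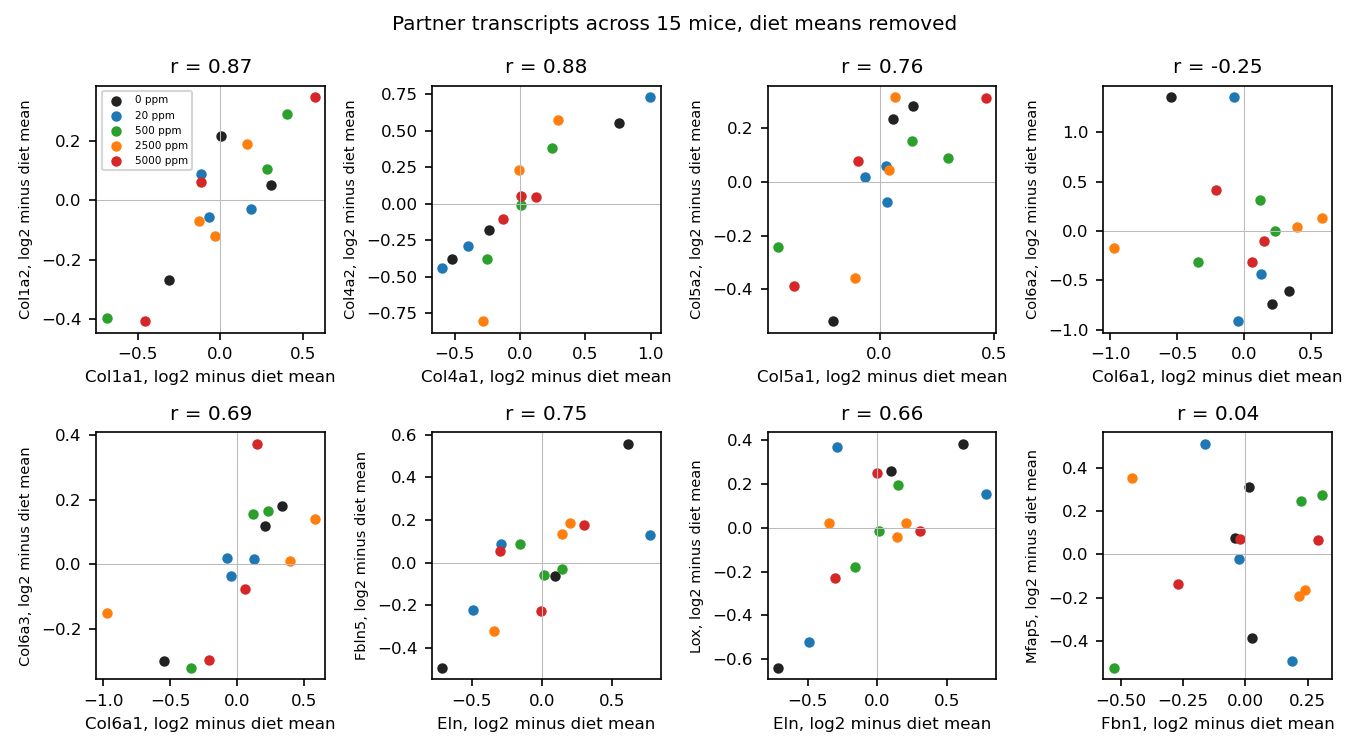
Log2 level minus the diet mean for 8 pairs of matrix genes, 1 point per mouse coloured by diet, with Pearson r above each panel. The points of Col4a1 and Col4a2 (r = 0.88) rise together from lower left to upper right, and those of Fbn1 and Mfap5 (r = 0.04) do not.

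Those 2 mice were the top pair of arrays for 7 of the 46 genes, Col4a1, Col4a2, Col6a2, Npnt, Loxl1, Bgn and Mfap4 (6.65% of all genes). They were the bottom pair for 6, Ogn, Fbln2, Sparc, Mfap5, Fbln5 and Lox (20.8% of all genes). Among other collagens, the fibril-associated Col14a1 and Col15a1 of basement membrane zones were high in a single mouse, at -1.20 and -2.57 in 500 ppm mouse 3 against at most -2.47 and -3.28 in the others. The median over all probes of that array was also high, at -1.94 against -2.95 to -2.57 on the others. Dimmer second probes of Col6a3 and Col13a1 were highest there too, at 0.35 and -1.18. The part of this array-wide difference in the 2 collagen levels was not tested. With slide as a fixed block Col14a1 alone of the 46 passed at 5000 ppm (-1.85, adjusted p = 0.0109), on a slide term set by that mouse. Among all 34401 genes 4940 passed there, 4868 of them lower. Without the block its difference at 5000 ppm was 0.12. At 5000 ppm Col15a1 differed from control by 0.42 ± 0.45, Col6a1 by 0.06 and Col6a3 by 0.11. The remaining collagens, Col4a3, Col8a1, Col12a1, Col13a1 and Col18a1, differed from control by 0.03 to 0.18 at 5000 ppm. Second probes gave -0.27 for Col12a1 and 0.39 for Col13a1.

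Among elastic fibre genes the members lay on both sides of control. Elastin (Eln) was 0.92, 2.25 and 1.73 in controls, 1.47, 1.67 and 2.73 at 20 ppm, 1.76, 1.63 and 1.45 at 500 ppm, 2.25, 2.19 and 1.70 at 2500 ppm, and 2.36, 2.05 and 1.75 at 5000 ppm. The diets overlapped, with control mouse 1 the lowest and 20 ppm mouse 3 the highest. Its difference at 5000 ppm was 0.42 ± 0.36 (adjusted p = 0.968) and 0.06 without control mouse 1, and its other probe gave -0.07. Eln and Fbln5, which guides elastin onto microfibrils, had an r of 0.75 (permutation adjusted p = 0.0422) and a rho of 0.77 (permutation adjusted p = 0.0196), 0.72 without 2 mice, 0.81 on slide 1 and 0.70 on slide 2. Under quantile normalization r was 0.61 (permutation adjusted p = 0.0736). For Eln and Lox r was 0.66 (permutation adjusted p = 0.206), rho was 0.52 (permutation adjusted p = 0.213), and r was 0.40 without 2 mice, 0.71 on slide 1 and 0.26 on slide 2. Fibrillin-1 (Fbn1) and Mfap5, both of microfibrils, had an r of 0.04 (permutation adjusted p = 0.892) and a rho of -0.05 (permutation adjusted p = 0.869), with r at -0.30 without 2 mice, -0.80 on slide 1 and -0.58 on slide 2.

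The microfibril gene Mfap2 was 2.11, 3.14 and 3.04 in controls, 3.22, 3.21 and 3.28 at 20 ppm, and 3.15, 3.17 and 2.95 at 500 ppm. It was 3.19, 3.23 and 2.81 at 2500 ppm and 3.56, 3.39 and 3.35 at 5000 ppm. The 3 mice at 5000 ppm were above all 12 others, and control mouse 1 was far below the rest. The difference at 5000 ppm was 0.67 ± 0.23, 1.59-fold (adjusted p = 0.886), and 0.34 without control mouse 1. The other Mfap2 probe gave -0.07, and the mean of both gave 0.30. Of the 8 elastic fibre and microfibril genes, 6 lay above control at 5000 ppm, as did 60.6% of all genes. Mfap4 was at -0.49 ± 0.50, or 0.07 without control mouse 1. The fibulins, which bridge elastin, microfibrils and cells, differed by 0.29 for Fbln1, 0.57 for Fbln2 and 0.25 for Fbln5. The other Fbln1 probe gave -0.02.

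Lysyl oxidases oxidise lysines of collagen and elastin so that cross-links can form. Lox was 1.06, 2.08 and 1.95 in controls, 1.74, 2.64 and 2.42 at 20 ppm, 2.12, 1.91 and 1.74 at 500 ppm, 2.18, 2.12 and 2.18 at 2500 ppm, and 2.44, 2.70 and 2.23 at 5000 ppm. All mice at 2500 and 5000 ppm lay above all controls, while 20 ppm overlapped with every other diet. The difference at 5000 ppm was 0.76 ± 0.28, 1.69-fold (adjusted p = 0.888), and 0.44 without control mouse 1. Loxl1, the family member most tied to elastic fibres, was 2.36, 0.72 and 0.54 in controls, 2.54, 1.04 and 1.70 at 20 ppm, and 1.65, 0.90 and 0.21 at 500 ppm. It was 0.93, 0.76 and 1.06 at 2500 ppm and 0.62, 0.48 and 1.59 at 5000 ppm, with the diets overlapping. Its difference at 5000 ppm was -0.31 ± 0.52 (adjusted p = 0.970) and 0.26 without control mouse 1. Loxl2 differed by 0.60 ± 0.24 at 2500 ppm (adjusted p = 0.494), and its other probe gave -0.06.

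Fibronectin (Fn1), an adhesive glycoprotein on which collagen assembles, was 4.30, 4.96 and 4.98 in controls, 4.86, 5.34 and 5.17 at 20 ppm, and 4.98, 4.66 and 4.54 at 500 ppm. It was 5.42, 5.46 and 4.98 at 2500 ppm and 5.39, 5.33 and 5.15 at 5000 ppm. Mice at 2500 and 5000 ppm lay above all controls, with 2500 ppm mouse 3 only just so. The difference was 0.54 ± 0.22 at each of these doses (adjusted p = 0.505 and 0.930), and 0.32 at 5000 ppm without control mouse 1. Its other 2 probes gave 0.24 and 0.41 at 5000 ppm.

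Sparcl1, a SPARC-like matricellular protein, was the only one of the 46 with an unadjusted p under 0.05 between 5000 and 2500 ppm, which were on the same slide. It was 5.47, 6.09 and 6.24 in controls, 6.16, 6.54 and 6.61 at 20 ppm, 6.71, 5.89 and 5.86 at 500 ppm, 6.77, 6.97 and 6.65 at 2500 ppm, and 5.97, 5.75 and 5.86 at 5000 ppm. The mice at 2500 ppm lay above all controls and the mice at 5000 ppm lay inside the control range. The difference between 5000 and 2500 ppm was -0.94 ± 0.25, 1.92-fold lower (adjusted p = 0.707, 0.0325 with array weights). Against control it was 0.86 ± 0.25 at 2500 ppm (adjusted p = 0.299) and -0.07 ± 0.25 at 5000 ppm. In the step from 2500 to 5000 ppm, groups did not overlap for 3 genes that were higher (Sparc, Mfap2 and Lox, 8.15% of all genes) and 3 that were lower (Aspn, Sparcl1 and Mfap5, 7.08%).

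Tenascin C (Tnc), a glycoprotein of remodelling tissue, had among the widest spreads, at -3.35, -4.02 and -4.10 in controls, -2.68, -4.31 and -4.63 at 20 ppm, and -4.63, -4.07 and -2.69 at 500 ppm. It was -4.64, -3.69 and -3.57 at 2500 ppm and -4.30, -3.30 and -3.58 at 5000 ppm, and no diet stood apart. Periostin (Postn), a collagen-binding matricellular protein, was 2.45, 3.16 and 2.87 in controls, 3.24, 2.45 and 2.79 at 20 ppm, 2.84, 2.55 and 2.54 at 500 ppm, 2.48, 3.00 and 2.54 at 2500 ppm, and 2.95, 2.75 and 2.94 at 5000 ppm. Its diets overlapped throughout. Sparc, which binds collagen, was 8.40, 8.95 and 8.81 in controls, 8.39, 8.97 and 8.91 at 20 ppm, 8.76, 8.75 and 8.71 at 500 ppm, 8.73, 8.74 and 8.91 at 2500 ppm, and 9.05, 9.05 and 8.92 at 5000 ppm. The mice at 5000 ppm overlapped with the controls. Nephronectin (Npnt), an integrin ligand of basement membranes, and Spon1, a secreted adhesion protein, differed from control by -0.38 ± 0.52 and 0.07 ± 0.24 at 5000 ppm, and without control mouse 1 Npnt was at 0.07. At that dose the differences were 0.10 ± 0.56 for Tnc, 0.05 ± 0.23 for Postn and 0.29 ± 0.18 for Sparc (adjusted p = 0.988, 0.986 and 0.966), and under quantile normalization those of Postn and Sparc were -0.07 and -0.04.

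Timp1, an inhibitor of matrix metalloproteinases, was 1.16, 0.90 and 1.23 in controls, 0.77, 0.77 and 1.83 at 20 ppm, 0.99 to 1.04 at 500 ppm, 1.08, 1.50 and 1.08 at 2500 ppm, and 1.16, 1.04 and 1.27 at 5000 ppm. These diets overlapped. At 5000 ppm Timp1, Timp2 and Timp3 differed from control by 0.06, 0.10 and 0.02.

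Groups that did not overlap were counted for every dose. At 20 ppm 4 of the 46 were higher than all controls (Col18a1, Col6a3, Mfap2 and Col5a1, 1.51% of all genes) and 0 lower (4.33%), and none had an unadjusted p under 0.05. At 500 ppm there were 0 in either direction (4.53% higher and 2.15% lower among all genes). At 2500 ppm 7 were higher (Aspn, Col6a3, Loxl2, Sparcl1, Fn1, Col5a1 and Lox, 8.8%) and 1 was lower (Bgn, 4.74%). At 5000 ppm 4 were higher (Aspn, Mfap2, Fn1 and Lox, 12.9%) and 2 were lower (Col4a2 and Bgn, 4.99%). For the 20 genes with more than 1 probe, 14 of 24 other probes had the sign of the brightest probe at 5000 ppm and 13 of 24 at 2500 ppm.

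Genes that make, process or degrade the matrix gave no call at any dose, in the step from 2500 to 5000 ppm or on the trend. The counts past the threshold were 0 of 21 for collagen folding and processing, 0 of 20 for matrix degradation, 0 of 22 for transforming growth factor beta signalling, 0 of 13 for laminins and nidogens and 0 of 9 for other elastic fibre genes. The smallest p at 5000 ppm in the first list was that of Serpinh1, the collagen chaperone of the endoplasmic reticulum, at 0.53 ± 0.16 (adjusted p = 0.673). In the second it was that of Mmp3, a metalloproteinase, at 1.49 ± 0.68 (adjusted p = 0.963). Bambi, a decoy receptor, led the third at 0.35, Lama1 the fourth at 0.87 and Emilin1 the fifth at -0.73. Smooth muscle and pericyte markers were measured beside these, with a summed level of 96.5 to 153 in controls, 154 to 329 at 2500 ppm and 145 to 202 at 5000 ppm. The 329 was 2500 ppm mouse 3, and the other 2 mice of that diet were at 154 and 190. Of the 10 genes 7 lay above control at 5000 ppm (60.6% of all genes). The median there was 0.31, from -0.59 for Actg2 to 1.23 for Cnn1. At 2500 ppm 8 did (57.3%), with a median of 0.58, at 500 ppm 7 (70.4%) and at 20 ppm 9 (44.5%). The limma unadjusted p was under 0.05 for 4 at 2500 ppm (8.5%) and 3 at 5000 ppm (5.14%). It was so for 1 at 500 ppm (2.84%) and 0 at 20 ppm (1.47%). Higher at 5000 than at 2500 ppm were 2 of the 10 (55.4%), and none passed the threshold. The 13 lung fibroblast markers summed to 408 to 454 in controls, 432 to 546 at 20 ppm and 410 to 473 at 500 ppm. Their sum was 368 to 460 at 2500 ppm and 415 to 506 at 5000 ppm. All 13 lay above control at 20 ppm (median 0.23), against 44.5% of all genes, and 10 did at 500 ppm (70.4%). At 2500 ppm 8 did (57.3%) and at 5000 ppm 10 did (60.6%), and none passed the threshold. The part of these cells in the matrix values was not tested.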

How the data were processed

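Lung RNA of 15 mice was labelled with Cy3 and hybridised to 1-colour Agilent arrays, per the labels. Per the file headers, Feature Extraction 10.7.3.1 gave the processed signal, a background-subtracted intensity on a linear scale. Values in the deposited table are on a log2 scale and equal log2 of that signal minus 1 constant per array. Here spots of a probe were averaged and log2 signals set to each array's 75th percentile. A probe was kept if well above background on all 3 arrays of at least 1 diet (43154 of 56605). RefSeq accessions gave the symbols (GRCm38.p6 table), and the probe with the highest mean stood for a gene. Each kept probe without a symbol was tested as a gene of its own. The headers of slide 1 give mm9 and those of slide 2 name no build. No coordinates from them are used.

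Diets were compared with limma 3.58.1 (R 4.3.3), 1 coefficient per diet over 15 arrays, two-sided, with Benjamini-Hochberg adjustment and a threshold of 0.05. Pairs of genes were tested with 100000 permutations of mice within diets. Values by mouse are given for the 8 genes with the smallest p among diets, the 4 with the largest within-diet SD, and Col1a1, Col3a1, Col4a1, Eln, Fn1, Dcn, Bgn, Vcan, Lox, Tnc, Postn, Sparc and Timp1. The members and lists were chosen with earlier results of these data known. Other genes named were chosen after their values were seen. Scripts were tested on simulated data.

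Like-numbered control and 20 ppm mice deviated together from their diet means (r 0.608, 0.257 and 0.166), and the crossed numbers 2 and 3 gave 0.369 and 0.373. At the other doses like-numbered mice did not. The labels name no shared litter or day. Alternatives were the background correction, scaling, filter, probe rule, blocks, empirical Bayes settings, array weights, groups fitted and arrays left out. Normexp correction used median spot signals.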

Additional observations from a re-analysis of the deposited data

How the results depend on the processing

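Of the 46 genes, the number past the threshold on the trend was 0 and became 1 under normexp correction, the filter over all 15 arrays (which leaves 45 of the genes), the replicate block, trend and robust empirical Bayes, array weights and without both arrays of 500 ppm mouse 3 and 2500 ppm mouse 3, each time Bgn (trend -0.25 under normexp, -0.23 with array weights, -0.27 in the others). It was 0 to 1 when single arrays were left out, and 0 in the other 6 comparisons. Among all genes 49 passed on the trend in the main fit. This became 42 under normexp, 55 with the filter, 44 with the replicate block and 75 with trend and robust empirical Bayes. Without 500 ppm mouse 3 it was 81, and without both arrays 127. Of the like-numbered control and 20 ppm mice, only mouse 1 (r 0.608) stood above the crossed numbers. Mice 2 and 3 gave 0.257 and 0.166 like-numbered and 0.369 and 0.373 crossed. The mouse numbers thus do not show a pairing, and the replicate block changed no other call among the 46. With slide as a fixed block, a term that rests on 500 ppm mouse 3, the number was 3 at 2500 ppm (Aspn 1.42, Col5a1 1.20 and Col14a1 -1.92), and 1 (Col14a1) at 5000 ppm, on the trend and among diets, and the median of the 46 was 0.48 at 2500 and 0.44 at 5000 ppm. With that block 5046 genes passed at 2500 ppm (4939 of them lower) and 4940 at 5000 ppm (4868 lower), against 0 and 14 without it. On the trend 5485 passed (5390 lower) and among diets 2850, against 49 and 14 without it. With array weights the number was 1 at 2500 ppm (Bgn -0.83), 1 between 5000 and 2500 ppm (Sparcl1 -0.96) and 1 among diets (Bgn), and genes past were 955 at 2500 ppm, 109 at 5000 ppm, 646 between these doses, 749 on the trend and 1507 among diets. Scaled to array medians, the median of the 46 at 500 ppm was -0.15, and that of all genes -0.11 in place of 0.12. The cause of these changes was not tested.

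Of the 20 genes given by mouse, uncalled differences at 5000 ppm changed sign in 34 cases. Without control mouse 1, 17 of all 46 changed sign at 5000 ppm, Npnt (0.074) and Mfap4 (0.074) among them, and 17 at 2500 ppm. Vcan was 0.033 under normexp and 0.30 as the mean of its probes. Postn was -0.045 under normexp, -0.074 under quantile normalization, -0.13 with array weights and -0.14 without control mouse 1 and 20 ppm mouse 1. Sparc was -0.043 and Timp1 -0.0083 under quantile normalization. With the fixed and the random slide block Sparcl1 was 0.36 and 0.066, Tnc -1.56 and -0.44, and Loxl1 0.75 and 0.028. Loxl1 was 0.11 and Col3a1 -0.038 with array weights. Without control mouse 1 and 20 ppm mouse 1 Col6a2 was 0.13, Loxl1 0.26 and Col3a1 -0.088. With single arrays left out the ranges were -0.31 to 0.078 for Sparcl1, -0.12 to 0.38 for Tnc, -0.042 to 0.13 for Timp1, -0.15 to 0.014 for Vcan, -0.63 to 0.68 for Lum, -0.11 to 0.40 for Col1a1, -0.088 to 0.29 for Col3a1, -0.92 to 0.13 for Col6a2, -0.66 to 0.26 for Loxl1 and -0.14 to 0.22 for Postn. The medians of the 46 then ran from 0.10 to 0.21 at 20 ppm, -0.01 to 0.20 at 500 ppm, 0.06 to 0.25 at 2500 ppm and 0.02 to 0.21 at 5000 ppm.

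Among the pairs, r under quantile normalization was 0.079 for Col6a1 and Col6a2, 0.61 for Eln and Fbln5, and -0.091 for Fbn1 and Mfap5. Scaled to array medians, r was 0.13 for Col6a1 and Col6a2 and 0.81 for Eln and Lox (permutation adjusted p = 0.015). Within slide 1 it was 0.51 for Col1a1 and Col1a2, -0.74 for Col6a1 and Col6a2, 0.97 for Col6a1 and Col6a3, and -0.80 for Fbn1 and Mfap5. Within slide 2 it was 0.19 for Col6a1 and Col6a2, 0.26 for Eln and Lox, and -0.58 for Fbn1 and Mfap5. Without 2 mice it was 0.40 for Eln and Lox and -0.30 for Fbn1 and Mfap5. Arrays of single slides give values only for 20 and 500 ppm against control and for 5000 against 2500 ppm. Of the 46 genes, 45 were well above background on all 15 arrays, but some of these were dim. Col15a1 ran from -4.65 to -2.57 and Fmod from -3.62 to -2.26, where array medians over all probes were -2.95 to -1.94. Whether low signal limited such genes was not tested, and the number of mice limits the precision.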
